A study of Mus musculus with 2 samples.

Results

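The B cell receptor chains and coreceptors described here are 9 mouse genes of 43346 in the deposited gene table, taken by symbol: Cd79a, Cd79b, Cd81, Cr2, Cd22, Cd72, Fcgr2b, Ms4a1 and Cd37. They were measured in CH12.LX, a murine lymphoma line of B cell origin. The line carries the strain label B10.H-2aH-4bp/Wts and is labelled female, and no treatment, genotype or contrast is given. Total RNA was sequenced in 2 libraries, biological replicates 1 and 2, which form a single group. Each library has its own biosample record, but the labels do not say whether the cultures were separate. The spread between them may therefore be partly technical. A clonal tumour line stands for no normal B cell stage.

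The B cell receptor is a membrane immunoglobulin that binds antigen, paired with a heterodimer of Cd79a and Cd79b that carries the signal into the cell. When antigen binds, Src family kinases and Syk phosphorylate tyrosines in the tails of that heterodimer. Coreceptors set how strong the answer is: a complex holding Cd81 and Cr2 lowers the threshold for complement-tagged antigen, whereas Cd22, Cd72 and Fcgr2b recruit phosphatases that damp the signal. Ms4a1 (CD20) is a four-span membrane protein of B cells, and Cd37 is a tetraspanin of lymphocytes.

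The signalling and inhibitory motifs of these receptors, and the alternative exons that separate their splice forms, are shown first because the transcript results turn on them. All were read from GENCODE M21 transcripts on mm10 and are written on the strand of the gene. The immunoreceptor tyrosine-based activation motif, or ITAM, holds a pair of tyrosines, each with a leucine or isoleucine at the third place after it, and was searched with a gap of 6 to 8 residues between its parts. It had a match in Cd79a and Cd79b and in no other of the 9 genes. A match occurred in 625 of 21741 protein-coding genes searched, or 2.87%. Capitals mark the codons of the paired tyrosines. Both motifs are spliced across an exon boundary, within chr7:24901296-24901469 on the plus strand for Cd79a and within chr11:106311867-106312012 on the minus strand for Cd79b.
Cd79a ITAM: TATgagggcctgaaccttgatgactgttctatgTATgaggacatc
Cd79b ITAM: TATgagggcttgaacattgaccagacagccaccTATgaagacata

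The immunoreceptor tyrosine-based inhibitory motif, or ITIM, is the short phosphatase-docking counterpart, and capitals mark its tyrosine codon. Its pattern is loose, and 48.8% of the protein-coding genes held a match, as did 6 of the 9 members. Cd79a had 2 matches, Cd81 had 1 and Cr2 had 1, beside those in the 3 inhibitory receptors. Cd22-201 had 5 matches, of which the 4 near the carboxyl end, in the cytoplasmic tail, are printed, in order along the tail. They lie at chr7:30867494-30867511, chr7:30867033-30867050, chr7:30866600-30866617 and chr7:30866540-30866557. The Fcgr2b motif is at chr1:170961071-170961088. The Cd72 motif, at chr4:43454498-43454515, is the first of 4 matches and lies in the amino-terminal tail. All 3 genes are on the minus strand.
Cd22 ITIM a: gttagtTATgccatcttg
Cd22 ITIM b: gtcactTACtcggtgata
Cd22 ITIM c: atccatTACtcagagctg
Cd22 ITIM d: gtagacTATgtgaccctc
Fcgr2b ITIM: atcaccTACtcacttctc
Cd72 ITIM: atcacgTATgcagacctg

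Fcgr2b and Cd72 have coding exons that some transcripts skip. The Fcgr2b insert exon codes for part of the cytoplasmic tail before the ITIM and lies at chr1:170963325-170963465. It has 141 bases, of which a shorter form keeps the first 57, in capitals, and lacks the other 84. The Cd72 cassette exon has 72 bases, at chr4:43453641-43453712, and a 21-base extension of another Cd72 exon lies at chr4:43449529-43449549.
Fcgr2b insert exon: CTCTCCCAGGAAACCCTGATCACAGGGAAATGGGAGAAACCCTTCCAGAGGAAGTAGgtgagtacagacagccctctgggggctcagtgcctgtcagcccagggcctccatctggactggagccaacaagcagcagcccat
Cd72 cassette exon: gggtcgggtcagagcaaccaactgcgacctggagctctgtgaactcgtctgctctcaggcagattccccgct
Cd72 exon extension: tacctctctgacgccccccag

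The libraries held 49278383 and 55950529 expected counts over genes in replicates 1 and 2. Levels are given in TPM, the standard unit of relative transcript abundance, which is per length and so can be set side by side between genes. Protein-coding genes held 24.4% of TPM in replicate 1 and 24.3% in replicate 2. The values below are shares over all annotated genes and would be higher if counted over protein-coding genes alone. All 12 B cell markers were at 1 TPM or more in both libraries, with a summed level of 2337 and 2293 TPM. Of 36 markers of other cell types 8 were at 1 TPM or more and 24 were under 0.1 TPM in both. Those above were Cd2, Cd3g, Cd3d and Cd28 of the T cell list (summed list level 9.57 and 9.96 TPM), Cd68, Mpeg1 and Adgre1 of the monocyte and macrophage list (35.5 and 35.7 TPM) and Mfge8 of the stromal list (3.87 and 5.65 TPM). Cd3e and Cd14 were listed at 0. In bulk RNA, fewer cells of a type and less RNA per cell cannot be told apart.

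Of the 9 genes 8 were at 1 TPM or more in both libraries, and 6 were at 10 TPM or more in both. Among 21474 protein-coding genes, 41.4% reached 1 TPM in both. The median level of the 9 was 17.6 TPM, against 0.195 TPM over all protein-coding genes and 6.67 TPM over those detected. The single exception was Cr2. Genes that overlap 6 of the members on the other strand were low, at most 1.26 TPM (Tesk1, beside Cd72), and the sources used here do not say whether counting used strand. Of the 50-base windows of Cd79a-201, 8.31% also occur in Gm32220. In descending order of mean level the genes were Cd79b, Cd81, Ms4a1, Cd37, Cd79a, Cd22, Cd72, Fcgr2b and Cr2. The library values of Cd37 and Cd79a overlapped, as did those of Cd72 and Fcgr2b, whereas all other neighbours in the order were apart in both libraries.

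**Figure D1:**
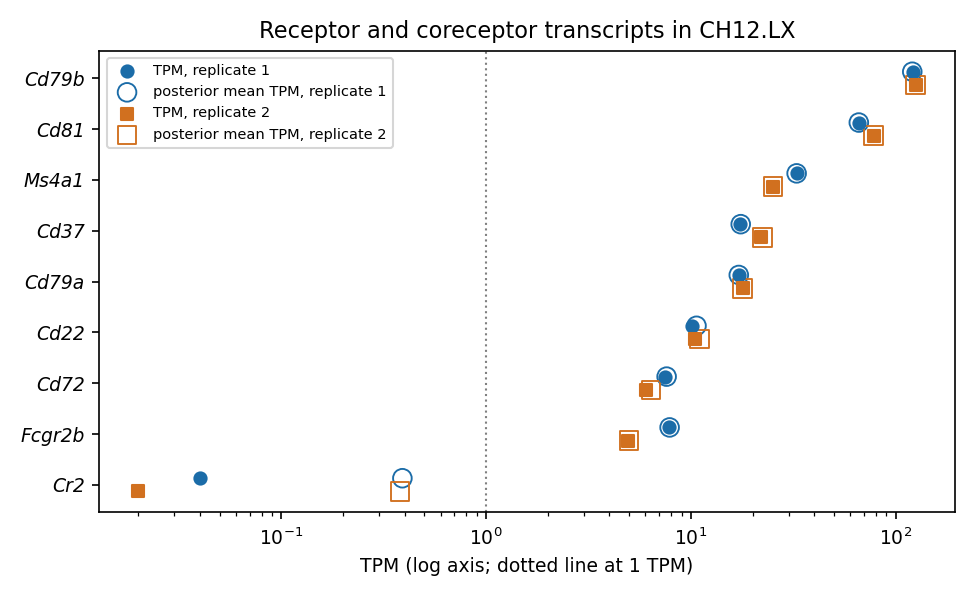
TPM of the 9 genes on a log axis in replicate 1 (circles) and replicate 2 (squares), with the deposited posterior mean TPM as open symbols and a dotted line at 1 TPM. Cd79b lies highest at 121 and 125 TPM, and Cr2 alone lies left of the line.

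Of the signalling chains, Cd79b was the most abundant of all 9 genes. Cd79b (ENSMUSG00000040592.7, chr11:106311341-106314762, minus strand) was at 121 and 125 TPM in replicates 1 and 2, from 14156 and 15982 expected counts. Its mean of 123 ± 3.16 TPM (SD, n = 2) gave rank 273 among protein-coding genes. Cd79a (ENSMUSG00000003379.7, chr7:24897381-24902197, plus strand) was at 17.2 and 18.0 TPM in replicates 1 and 2, from 2466 and 2802 expected counts. Its mean was 17.6 ± 0.544 TPM, at rank 1974. The proteins form a heterodimer, but the transcripts were far from equal per length. The ratio of Cd79b to Cd79a was 7.03 in replicate 1 and 6.98 in replicate 2, a spread of 0.0373 (SD, n = 2) around 7.01.

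The antigen-binding chains stood above both. Ighm-202, the transcript of the membrane form of the mu heavy chain, was at 406.8 and 436.9 TPM in replicates 1 and 2. That is 3.36 and 3.48 times the level of Cd79b and 23.6 and 24.3 times that of Cd79a. Igkc, the kappa constant gene, was at 1518 and 1494 TPM, which is 12.5 and 11.9 times the level of Cd79b. These ratios are per length. By expected counts Igkc, with 27521 and 28379 in replicates 1 and 2, lay below Ighm-202, with 69162 and 80861. By TPM, the order in both libraries was kappa chain, membrane mu transcript, Cd79b and Cd79a. Ighm-201, the other Ighm transcript, is outside this order. It made up 73.7% of Ighm TPM in replicate 1 (1139 TPM) and 69.9% in replicate 2 (1015 TPM). The kappa gene was therefore not ranked against Ighm as a whole.

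The single annotated transcript of Cd79a, Cd79a-201, codes for the whole chain. Cd79b had a pair of complete coding transcripts. Cd79b-202, with 684 coding bases, held 90.3% of Cd79b TPM in replicate 1 and 89.3% in replicate 2. Cd79b-201, whose coding sequence of 864 bases starts further upstream, held 9.71% and 10.8%. The shares differed by about 1 percentage point between the libraries.

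Cd81, a widely expressed tetraspanin that organises other membrane proteins, was the second most abundant gene. It (ENSMUSG00000037706.12, chr7:143052739-143067934, plus strand) was at 66.05 and 78.0 TPM in replicates 1 and 2, from 9917 and 12719 expected counts. The mean was 72.0 ± 8.46 TPM (n = 2), and Cd81-201 held 97.8% and 97.4% of it. Cd81 was lower in replicate 1 by more than its deposited credibility bounds, which ran up to 67.5 TPM there and started at 76.6 TPM in replicate 2.

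Cr2, which codes for complement receptors of mature B cells and follicular dendritic cells, stood apart from the rest. Cr2 (ENSMUSG00000026616.10, chr1:195136811-195176716, minus strand) was at 0.04 and 0.02 TPM in replicates 1 and 2, from 5 and 4 expected counts. Its deposited posterior means were 0.39 and 0.38 TPM, with bounds of 0.101 to 0.804 TPM in replicate 1 and 0.0809 to 0.800 TPM in replicate 2. The TPM of each library lay below its own lower bound, so the bounds do not bracket the TPM at these few counts. Every one of these values is under 1 TPM. The counts were spread over several of 11 annotated transcripts, every complete coding transcript was listed at 0 TPM, and no splice form can be read at this depth. Cr1l, a complement regulator gene that lies 5224 bases from Cr2, was at 21.7 and 20.1 TPM in replicates 1 and 2.

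The inhibitory receptors lay lower than the other detected members, between 4.93 and 10.5 TPM in single libraries. Cd22 is a sialic acid-binding lectin that recruits the phosphatase Ptpn6 through the motifs printed above. Cd22 (ENSMUSG00000030577.9, chr7:30865402-30880342, minus strand) was at 10.2 and 10.5 TPM in replicates 1 and 2, from 2209 and 2311 expected counts, with a mean of 10.3 ± 0.205 TPM. That level rests on many short transcripts. The 5 transcripts with the complete coding sequence of 2604 bases held 89.7% of the expected counts in replicate 1 and 83.0% in replicate 2, but 48.9% and 43.1% of the TPM. Counted over those alone, Cd22 was at 4.98 and 4.51 TPM in replicates 1 and 2.

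The largest mean share of Cd22 TPM belonged to a short transcript, although Cd22-201 held more in replicate 1. Cd22-215, of 347 bases, held 14.7% of Cd22 TPM in replicate 1 and 28.7% in replicate 2, from 31.2 and 65.8 expected counts. Cd22-201, a complete coding transcript, held 834.7 and 842.3 expected counts. The shares of single Cd22 transcripts were unstable: Cd22-203, also complete, held 13.2% in replicate 1 and 2.80% in replicate 2. With the older M2 annotation, which has 2 transcripts of Cd22, nearly the same counts (2124 and 2234) gave 5.02 and 4.86 TPM. By mean, Cd22 (4.94 TPM) then lay below Cd72 (6.65 TPM) and Fcgr2b (6.275 TPM). In replicate 2 alone Fcgr2b, at 4.83 TPM, stayed just under Cd22.

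Cd72, a C-type lectin that also carries an ITIM, was at 7.47 and 6.02 TPM in replicates 1 and 2. Cd72 (ENSMUSG00000028459.7, chr4:43446462-43454628, minus strand) had 868 and 815 expected counts, and its mean was 6.75 ± 1.03 TPM (n = 2). Its complete coding transcripts held 71.4% of TPM in replicate 1 and 77.9% in replicate 2. Among these, forms with the 72-base cassette exon made 27.8% in replicate 1 and 54.6% in replicate 2, a mean of 41.2% ± 19.0 (SD, n = 2). The libraries thus disagreed on which form led. Cd72-205, which has the cassette, was alike in replicates 1 and 2, at 1.48 and 1.41 TPM. Cd72-203, the main form without the cassette, was at 3.58 and 1.89 TPM in replicates 1 and 2, with bounds that were apart (2.89 to 3.85 TPM and 1.44 to 2.35 TPM). Cd72-201, which also has the cassette, was listed at 0 TPM in replicate 1 and at 1.15 TPM in replicate 2. Its bounds overlapped, running up to 0.537 TPM in replicate 1 and down to 0.309 TPM in replicate 2. The 21-base extension was steadier, in 67.2% of the complete coding TPM in replicate 1 and 64.8% in replicate 2.

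Fcgr2b is the inhibitory receptor for immunoglobulin G and recruits the lipid phosphatase Inpp5d. Fcgr2b (ENSMUSG00000026656.11, chr1:170958617-170976547, minus strand) was at 7.81 and 4.93 TPM in replicates 1 and 2, from 1093 and 784 expected counts. The mean was 6.37 ± 2.04 TPM (n = 2), the widest relative spread of the 8 detected genes. Of the 50-base windows of Fcgr2b-202, 11.7% also occur in transcripts of Fcgr3, an activating receptor that was at 1.03 and 2.04 TPM in replicates 1 and 2, so counts in that stretch are uncertain.

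In mouse, the Fcgr2b form with the tail insert, known as b1, is the one described for B cells, and it stays at the surface, whereas the b2 form without it is described for macrophages and is taken up with bound complexes. In CH12.LX both occurred. The form without the insert, Fcgr2b-202, held 50% of the complete coding TPM in replicate 1 and 56.8% in replicate 2, a mean of 53.4% ± 4.80 (SD, n = 2). The forms with the whole 141-base insert, Fcgr2b-201 and Fcgr2b-204, held 34.5% and 30.8%, a mean of 32.6% ± 2.60. Fcgr2b-203, which keeps the first 57 bases of the insert, held 15.5% and 12.4%. The order of the 3 forms was alike in both libraries. By expected counts the form without the insert held 51.4%, the whole insert 39.1% and the partial insert 9.56% on average, in the same order. These shares come from the authors' statistical division of reads among transcripts, and no table of reads over the exon junctions was used here. The ITIM lies in an exon that all 3 forms keep.

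**Figure D2:**
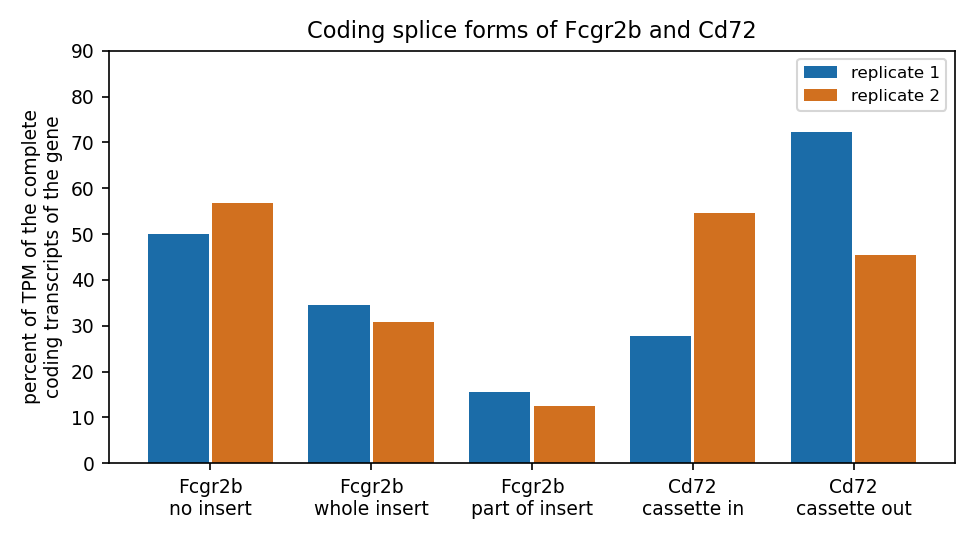
Share of the TPM of complete coding transcripts held by each coding form of Fcgr2b and Cd72, in percent, with 1 bar for replicate 1 and 1 for replicate 2. The form without the insert is the largest of the 3 Fcgr2b forms in both libraries (50% and 56.8%). The Cd72 cassette exon is in 27.8% in replicate 1 and 54.6% in replicate 2.

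Ms4a1 codes for CD20, the target of the antibody rituximab in human B cell lymphoma. Ms4a1 (ENSMUSG00000024673.9, chr19:11249675-11266241, minus strand) was at 33.0 and 25.2 TPM in replicates 1 and 2, from 10568 and 8818 expected counts, with a mean of 29.1 ± 5.46 TPM. Ms4a1-201, the complete coding transcript, held 95.03% and 94.2% of it. With the M2 annotation, which has 1 Ms4a1 transcript, the gene was at 43.5 and 33.0 TPM in replicates 1 and 2. In both annotations it was higher in replicate 1.

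Cd37, a tetraspanin of mature B cells, ran the other way. Cd37 (ENSMUSG00000030798.9, chr7:45233632-45239115, minus strand) was at 17.3 and 22.1 TPM in replicates 1 and 2, from 2481 and 3432 expected counts, with a mean of 19.7 ± 3.39 TPM. The main complete coding transcript, ENSMUST00000098461.3, of 1227 bases, held 52.9% in replicate 1 and 60.8% in replicate 2. Another complete coding transcript, of 1268 bases, held 5.67% and 7.64%. A longer transcript, ENSMUST00000145089.3, of 2541 bases, held 23.4% and 19.9%. It is one of 7 Cd37 transcripts of 9 with no match by identifier and length in GENCODE M21, so nothing is said of what it codes for. Cd81, the other tetraspanin of the group, stood at 3.82 times Cd37 in replicate 1 and 3.53 times in replicate 2.

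Counted over complete coding transcripts alone, the lower part of the order changed. The mean levels were then 17.6 TPM for Cd79a, 12.6 TPM for Cd37, 5.37 TPM for Fcgr2b, 5.01 TPM for Cd72 and 4.75 TPM for Cd22, which became the lowest of the 8 detected genes by mean. The libraries differed on the last place, which Cd22 took in replicate 1 (4.98 TPM) and Fcgr2b in replicate 2 (4.35 TPM, against 4.51 TPM for Cd22). The value for Cd37 is a lower bound because of its unmatched transcripts. Cd79b, Cd81 and Ms4a1 kept the first 3 places.

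**Figure D3:**
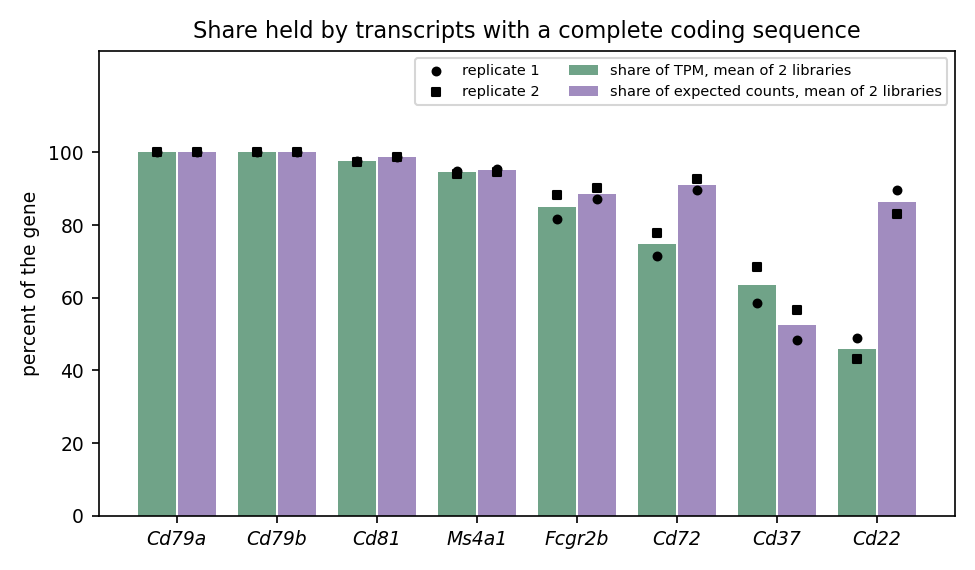
Percent of each gene's TPM and of its expected counts held by transcripts with a complete coding sequence, as the mean of 2 libraries (bars) with each library as a point. Cd22 has the widest gap, with 46.0% of its TPM and 86.4% of its expected counts in such transcripts.

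The libraries were compared gene by gene with an exact binomial test on expected counts, scaled by TMM and adjusted by Benjamini-Hochberg over 15438 genes. The test sets 1 library against the other, covers counting error only and has no replicate check. None of the 8 members tested passed both an adjusted p of 0.05 and a ratio of 2, against 4.77% of all genes tested. Without the ratio, 6 of 8 passed, 3 higher and 3 lower in replicate 1, against 50.4% of all genes. Cr2, with 5 counts in replicate 1 and 4 in replicate 2, was not tested. The deposited bounds were apart in 5 of the 8, against 34.7% of all genes.

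Fcgr2b differed most, at 1.49 times in replicate 1 over replicate 2 (log2 ratio 0.58, 95% counting interval 0.44 to 0.71, adjusted p = 6.48e-17 in the exact binomial test). It was the only member outside the range from -0.59 to 0.46 that held the middle 9 in 10 of the 9835 genes whose mean reached 1 TPM. Ms4a1 was also higher in replicate 1, at a log2 ratio of 0.36, and Cd72 at 0.19. Cd37 fell by 0.37 and Cd81 by 0.26 on the log2 scale in replicate 1 relative to replicate 2. Cd79b differed by -0.08 and Cd79a by -0.09, the second with an adjusted p of 0.0632 in the exact binomial test. Cd22, at 0.03 with an interval of -0.05 to 0.12, had the smallest difference under this scaling. With library totals Cd22 was at 0.12, Cd79b turned to 0.0082 and Cd79a, at -0.0011, was the smallest. By deposited TPM Cd22 turned to -0.0401.

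**Figure D4:**
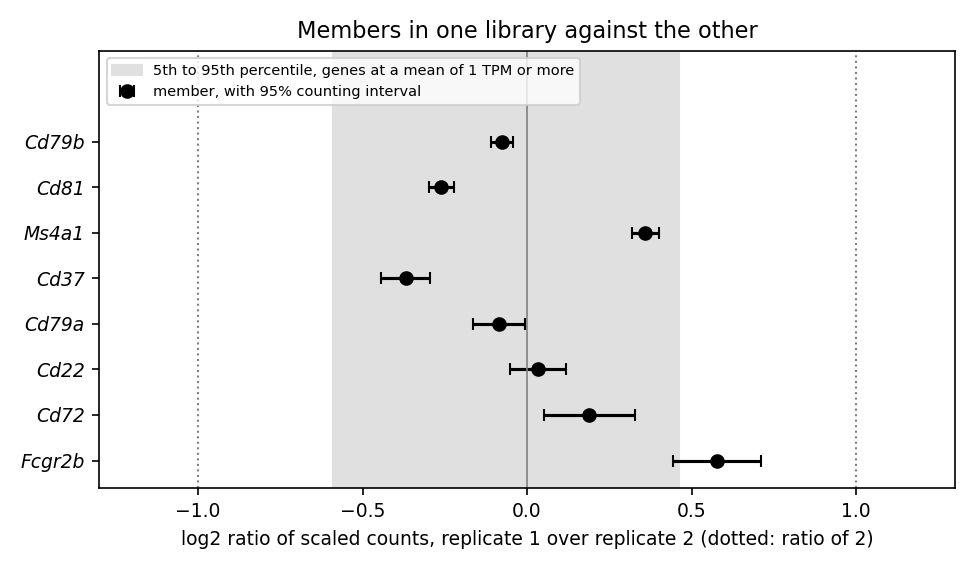
Log2 ratio of scaled expected counts, replicate 1 over replicate 2, for the 8 genes tested, with 95% counting intervals, the 5th to 95th percentile of genes whose mean reached 1 TPM in grey and dotted lines at a ratio of 2. Fcgr2b, at 0.58, lies right of the grey range, and no gene reaches a dotted line.

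The pathway around these receptors was counted in lists that hold 126 other genes, of which 65 were at 1 TPM or more in both libraries. All 14 proximal kinases and adaptors were detected, with a median of 13.7 TPM. Plcg2, the phospholipase of the receptor, was at 47.9 ± 2.05 TPM, the kinase Syk at 37.7 ± 1.80 TPM and the adaptor Blnk at 34.1 and 20.7 TPM in replicates 1 and 2. The lowest were the kinase Fyn, at 2.31 and 3.59 TPM, and the scaffold Bank1, at 2.72 and 2.75 TPM. All 12 transcription factors listed as activators of the Cd79a and Cd79b promoters were detected, led by Tcf3 at 45.0 ± 4.09 TPM, Spib at 36.3 ± 9.89 TPM and the coactivator Pou2af1 at 22.7 ± 3.54 TPM.

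In the coreceptor complex list 3 of 5 genes were detected, Cd81 among them. Ifitm2 and Ifitm1, interferon-induced membrane proteins, were at means of 31.9 ± 1.51 TPM and 13.98 ± 1.27 TPM, while their relative Ifitm3 was at 0.02 and 0.06 TPM. In the list of complement receptors and regulators Cr1l was the sole gene detected of 11, and the list median was 0.095 TPM.

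Downstream of the inhibitory receptors, 9 of 12 phosphatases and adaptors were detected, with a median of 7.29 TPM. Ptpn6, the phosphatase bound by Cd22 and Cd72, was at 63.7 ± 6.62 TPM, Inpp5d, bound by Fcgr2b, at 21.4 ± 2.31 TPM and the kinase Csk at 20.9 ± 1.90 TPM. The lowest were the ubiquitin ligase Cblb, at 0.57 and 0.54 TPM, and the adaptor Pag1, at 0.05 and 0.01 TPM. The enzyme St6gal1, which makes the sialic acid linkage that Cd22 binds, was at 23.1 ± 0.240 TPM, and Sema4d, a ligand of Cd72, at 4.03 ± 0.240 TPM. Cmah, which modifies sialic acid to the form mouse Cd22 prefers, was under 1 TPM, at 0.81 and 0.80 TPM.

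Of 11 other inhibitory receptors of B cells 6 were detected, with a median of 1.14 TPM. Pdcd1 (PD-1) was at 9.73 and 6.31 TPM in replicates 1 and 2, Siglecg, the other B cell lectin of the Cd22 family, at 7.06 ± 0.134 TPM and Pecam1 at 4.64 and 5.35 TPM. Lair1 and Cd300a were lowest, at 0.11 and 0.05 TPM and at 0.04 TPM in both. Siglecg was also the sole gene detected among 7 other Siglec genes.

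Within the gene families of the members the picture was uneven. Of 25 other tetraspanins 13 were detected, led by Cd82 at 39.4 and 51.3 TPM in replicates 1 and 2, Cd53 at 19.8 ± 0.184 TPM and Tspan31 at 19.2 ± 0.219 TPM. Of 15 other MS4A genes none reached 1 TPM in both libraries, and the highest, Ms4a6c, was at 0.85 and 1.20 TPM. Of 12 other Fc receptor genes 4 were detected: Fcgr4 at 12.6 ± 1.34 TPM, Fcrla at 4.53 and 2.59 TPM, Fcer1g, the signalling subunit of activating Fc receptors, at 3.27 and 2.41 TPM, and Fcgr3. Fcgr4, an activating receptor described on macrophages and neutrophils, was thus above the inhibitory Fcgr2b in both libraries, in a table in which 3 of 7 monocyte and macrophage markers (Cd68, Mpeg1 and Adgre1) were also detected. The other 4 were under 1 TPM, with Csf1r at a mean of 0.28 TPM, Itgam at 0.03 TPM, Lyz2 at 0.02 and 0.01 TPM and Cd14 listed at 0. The part of these markers in the result was not tested.

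**Figure D5:**
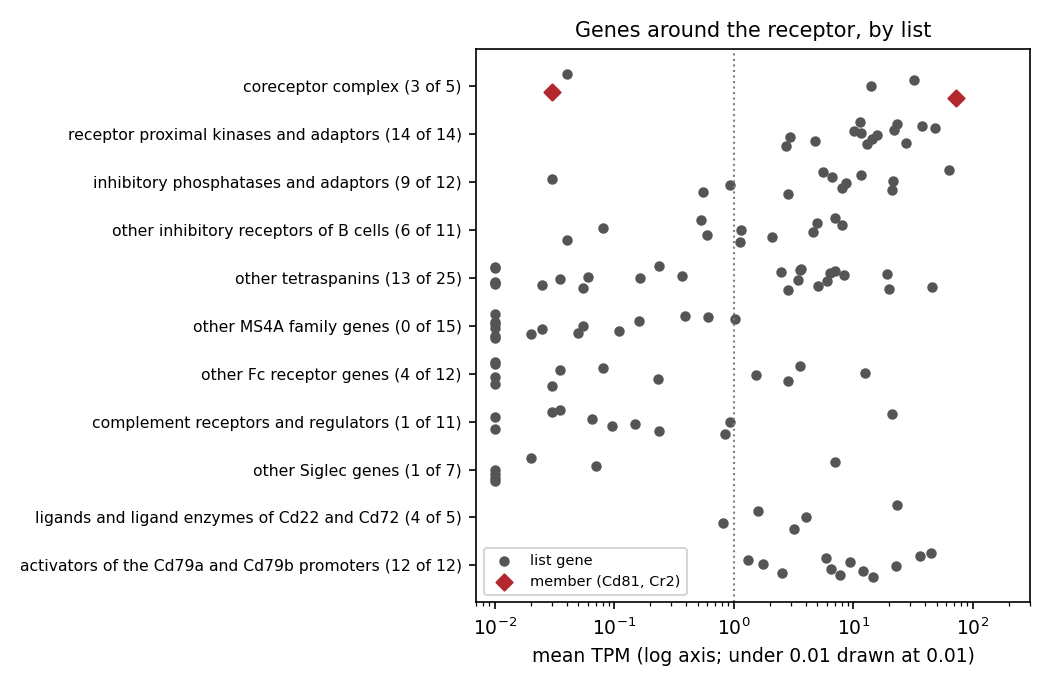
Mean TPM of 2 libraries, on a log axis, for each gene of the 11 lists around the receptor, with the detected and matched numbers beside each list name and a dotted line at 1 TPM. All 14 proximal kinases and adaptors and all 12 promoter activators lie right of the line, and no other MS4A gene passed in both libraries.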

How the data were processed

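Total RNA of CH12.LX was sequenced in 2 libraries. The authors deposited gene tables for the GENCODE mouse annotations M2, M3 and M4 and a transcript table for M4, on mm10, per the file headers and notes. Their columns hold expected counts (estimated counts that need not be whole), TPM and FPKM, posterior mean TPM, credibility bounds on TPM and the percent of a gene's TPM held by each transcript, all computed by the authors. No aligner, quantifier, credibility level or strand setting is named by the sources used here.

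The M4 tables were used. Rows that name no gene (26248 with a number alone and 97 others) held 5.68e-05% of counts in replicate 1 and 5.36e-05% in replicate 2 and were left out. Of 43346 gene identifiers 42462 matched a symbol. Coordinates, transcript names and sequences came from GENCODE M21, also on mm10, and 55 of 62 member transcripts matched by identifier and length. Detected means 1 TPM or more in both libraries. For library ratios, expected counts were rounded to whole numbers, genes with 10 counts or more in sum were kept, sizes were scaled by TMM (edgeR 4.0.16, R 4.3.3), and a two-sided exact conditional binomial test was adjusted over all genes. DESeq2 1.42.0 size factors were an alternative, as were library totals, other count filters, the M2 and M3 tables, posterior mean TPM, FPKM, TPM rescaled to protein-coding genes and a pseudocount of 0.1 TPM. The counts of the libraries were further apart than sampling noise (chi-square per degree of freedom 172), so they were not treated as copies of a single library. That does not show that the cultures were separate, and n = 2 counts libraries. Motifs were searched in translated coding sequences. For the shares over protein-coding genes, the complete coding transcript with the longest coding sequence of each gene was used. For each member a chosen transcript was used, which for Cd79b, Fcgr2b and Cd37 was not the longest.

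The members and lists were chosen with earlier results of these data known. The named genes are the members, their transcripts with 10% or more of the gene, the antigen-binding chains, up to 3 highest and 2 lowest genes of each list, and detected markers of other cell types. One gene of the coreceptor complex is not reported here.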

Additional observations from a re-analysis of the deposited data

How the results depend on the processing

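The number of members detected was 8 under every annotation and scaling tried and without either replicate, and 6 at 10 TPM. Pathway genes detected were 65, 27 at 10 TPM, 64 with M2 and 82 at 0.1 TPM. Genes called between the libraries were 737, of which 22.4% were higher in replicate 1, against 670 and 32.4% with library totals, 726 with DESeq2 size factors, 296 with at least 100 counts and 7779 with no ratio criterion. The log2 ratio of Cd79b, -0.08, turned to 0.0082 with library totals, and that of Cd22, 0.03, turned to -0.0401 by deposited TPM. The Cd79b to Cd79a ratio was 7.03 with M2 and M3. Left out in turn, the replicates gave a Cd79b to Cd79a ratio of 6.98 to 7.03, an Fcgr2b share without the insert of 50% to 56.8% and a Cd72 cassette share of 27.8% to 54.6%. Shares by expected counts moved by more than the spread between libraries in 14 of 24 transcripts. The form shares, chain ratio and complete coding levels were added after seeing the data. No paired analysis was possible because the libraries form 1 group, and leaving out a library ends the library comparison. With 2 libraries of 1 line the SD is imprecise, and Cr2 is too shallow for forms.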
